A study of Arabidopsis thaliana with 12 samples.

Results

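Small RNA of 21 and 22 nucleotides (nt) was counted over 14 annotated feature classes of Arabidopsis thaliana, and the 4 that are neither working genes nor structural RNA are described here: transposable elements, intergenic sequence, promoters and pseudogenes. All rows of these 4 classes were taken, at both lengths and in every library, which gave 8 of the 28 class values. The RNA came from whole seedlings aged 10 days, of the Col-0 wild type and of the dcl4-2 mutant, which is altered in the gene for DICER-LIKE 4 (DCL4). Both genotypes were raised on MS, a standard salt medium, or on MS-N, the same medium lacking nitrogen, so dcl4-2 on MS-N carried both changes and Col-0 on MS neither. Each of the 4 groups had 3 libraries, which the series text calls biological replicates, and the whole seedling mixes all of its cell types. The study title concerns 22-nt siRNAs and adaptation to stress, and the comparisons of genotype and of medium follow from its design.

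Transposable elements are mobile DNA that plants keep silent through small interfering RNAs (siRNAs), most of them heterochromatic siRNAs that DCL3 cuts and that direct DNA methylation. Long double-stranded RNA is processed by DCL4 to siRNAs of 21 nt and by DCL2 to siRNAs of 22 nt, and transposons that become active as messengers can be cut by both. Intergenic sequence, promoters and pseudogenes, which are copies of genes or transposons without a working product, overlap with silenced repeats, so the classes can hold siRNAs of several origins. Only reads of 21 and 22 nt were counted here, so the values do not cover siRNAs of other lengths. Which part of the counted reads DCL2, DCL3 or DCL4 made was not tested.

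The deposited class values carry no sequence. Sequence could be shown for pseudogene loci, through their locus identifiers in the RefSeq annotation of TAIR10.1. A group of 18 such loci, chosen after their values were seen, held far more 22-nt reads in 1 of the 3 dcl4-2 libraries on MS than in the other 2, and their values are given further on. The run of 22 bases held by the most of these 18 loci, on either strand, was in 16 of them. The same run was in 35 of the 4829 pseudogene loci searched (0.725%). It was picked for being shared by the 18, so nothing is read from the difference between these counts. Windows of 100 bases around this run are shown for 4 of the loci, to show how close the copies are. The shared run is in capitals, and the windows are read 5′ to 3′ on the strand given.
AT5G31719, chr5:11690411-11690510, plus strand: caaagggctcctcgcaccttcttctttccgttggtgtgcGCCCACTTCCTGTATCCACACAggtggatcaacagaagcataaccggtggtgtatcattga
AT5G32107, chr5:11814654-11814753, plus strand: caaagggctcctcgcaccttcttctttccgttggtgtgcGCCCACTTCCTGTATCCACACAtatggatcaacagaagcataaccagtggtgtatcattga
AT5G32197, chr5:11837667-11837766, minus strand: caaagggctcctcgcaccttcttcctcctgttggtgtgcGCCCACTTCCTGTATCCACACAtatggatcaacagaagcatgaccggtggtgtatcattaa
AT4G08050, chr4:4896675-4896774, plus strand: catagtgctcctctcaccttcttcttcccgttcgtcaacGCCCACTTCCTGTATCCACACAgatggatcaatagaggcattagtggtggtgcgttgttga
The AT5G31719 window matched that of AT5G32107 at 97 of 100 bases, that of AT5G32197 at 93 and that of AT4G08050 at 82. The windows of AT5G29975 and AT5G32306 were identical to it. A read from such a stretch fits several loci, and how the authors assigned such reads is not given in the sources used here. The loci are therefore not independent measurements.

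The libraries held 4515437 to 7270637 reads, recovered from the deposited values, and each of the 8 class values rested on 1676 to 451222 reads. The tasiRNA class, whose 21-nt siRNAs DCL4 makes, checks the mutant label. Its 21-nt level was 23904 to 50329.6 in the Col-0 libraries and 1034 to 2866 in the dcl4-2 libraries, with no overlap, in reads per 1000000 reads of the library (rpm). All class levels are in this unit. They are not scaled to the length of sequence in a class, so levels of different classes are not compared as densities. Together the 4 classes made up 34.1% ± 0.376 to 41.9% ± 4.07 (SD, n = 3) of the 21-nt and 22-nt reads of the 13 classes other than tasiRNA in 3 groups, and 28.8% ± 0.674 in dcl4-2 on MS-N.

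The 3 dcl4-2 libraries on MS disagreed with each other in the intergenic and transposable element classes. The 22-nt intergenic level was 26469, 66132 and 57302 rpm in replicates 1, 2 and 3. Replicates 2 and 3 were thus 2.33-fold above replicate 1 on average, and replicate 1 lay below every Col-0 library on MS. The coefficient of variation was 41.7%, the highest of the 28 class values in this group. In dcl4-2 on MS-N the same class varied by 0.855%, the lowest of the 28. Transposable elements went the other way. Their 21-nt level was 17992, 10067 and 10354 rpm, with replicate 1 1.76-fold above the mean of the other two. Their 22-nt level was 20289.7, 14923 and 13994 rpm, with replicate 1 1.4-fold above. Promoter and pseudogene values differed less between replicate 1 and the others, by log2 0.019 and 0.21 for promoters at 21 and 22 nt and by 0.15 and 0.14 for pseudogenes. At 21 nt, intergenic reads did not share the split, at 21036, 23755 and 21935 rpm.

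**Figure D1:**
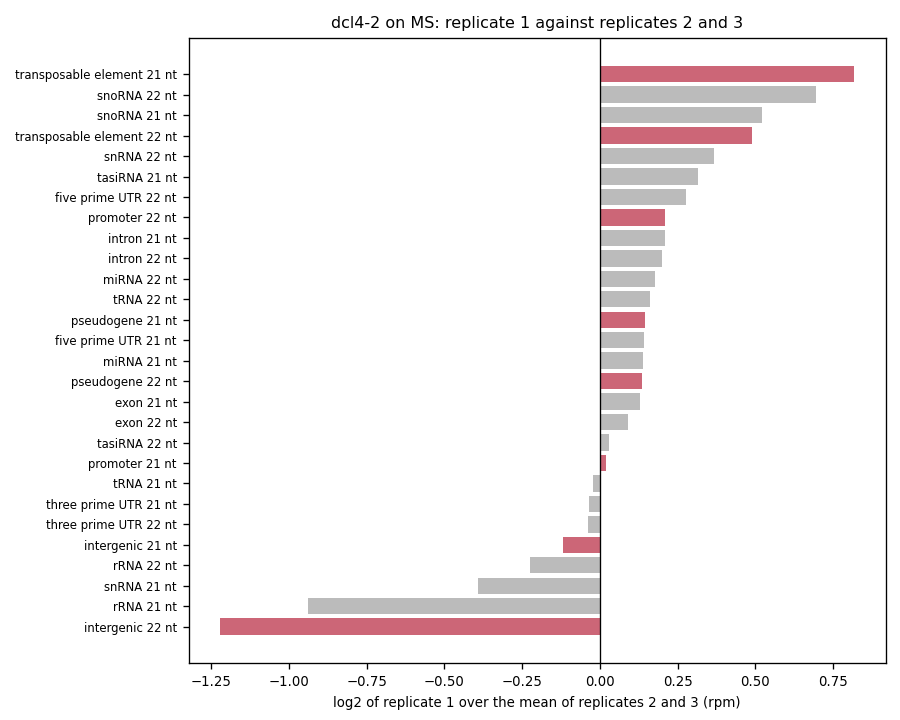
Log2 ratio of dcl4-2 MS replicate 1 to the mean of replicates 2 and 3, in rpm, for each of the 28 class values (bars), with the 4 classes described here in red. Intergenic 22 nt is the lowest bar and transposable element 21 nt the highest.

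Outside the 4 classes, 21-nt rRNA fragments were also lower in replicate 1, at 901 rpm against 1699 and 1760.4. Fragments of snoRNA were higher in it, at 285 rpm against 195 and 201 at 21 nt. The part of RNA quality or of library preparation in this split was not tested. For several results below that hinge on replicate 1, or on replicates 2 and 3, values are also given without them.

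**Figure D2:**
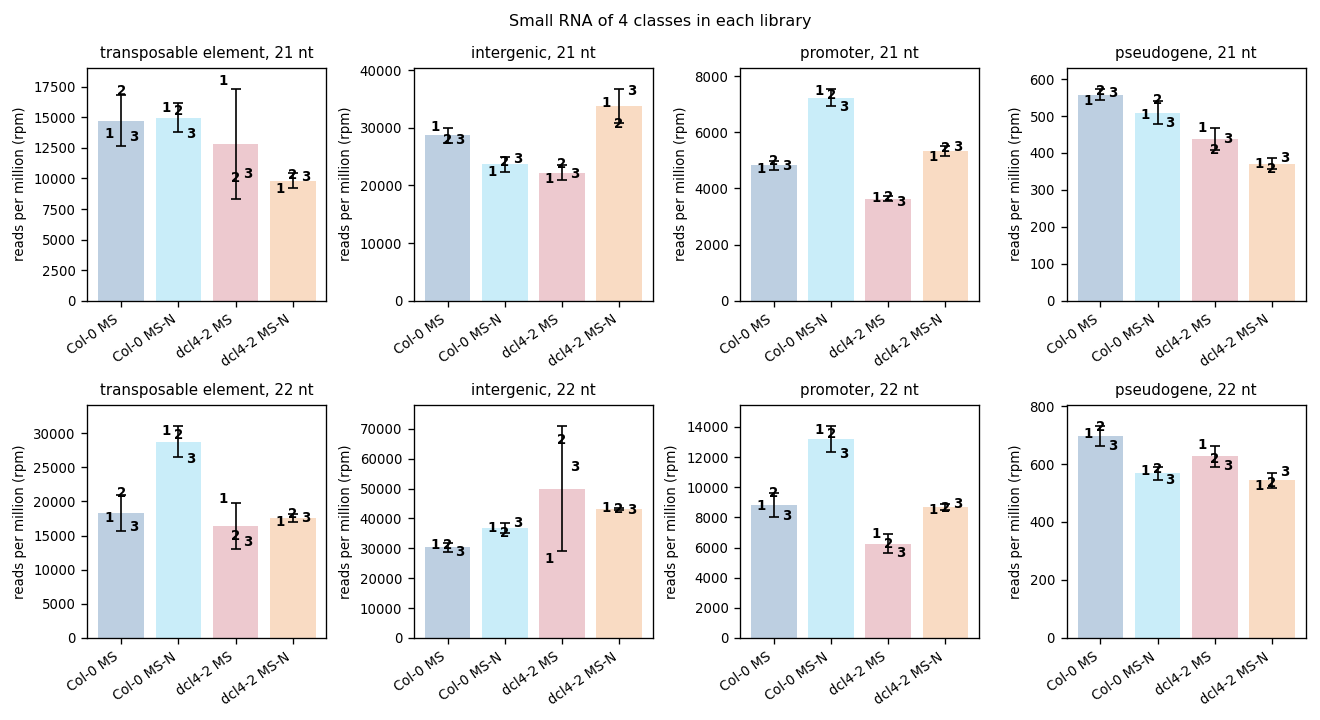
Level of each of the 4 classes at 21 nt (top) and 22 nt (bottom), in rpm, in the 4 groups. Bars are means of 3 libraries, error bars 1 SD, and the digits mark the value of replicates 1, 2 and 3. Replicate 1 of dcl4-2 on MS is far above the other two for transposable elements and far below them for 22-nt intergenic reads.

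Loss of DCL4 went with lower promoter reads and lower 21-nt pseudogene reads on both media. Over both media, 4 of the 8 class values were lower in dcl4-2 and 0 were higher, by exact permutation of the genotype labels inside each medium (two-sided), adjusted over the 28 class values. Of all 28 values, 46.4% passed in this comparison (5 higher, 8 lower). The split of the 8 depends on the scaling. With levels taken per total of the 21-nt and 22-nt reads of the 13 classes, 0 higher and 6 lower passed. Per total of those reads without microRNA, 1 higher and 2 lower passed. The higher one was 22-nt intergenic reads, at log2 0.63 (permutation adjusted p = 0.0175) there and 0.43 (permutation adjusted p = 0.114) in rpm. Without replicate 1 of dcl4-2 on MS the rpm difference was log2 0.63 (permutation adjusted p = 0.0117). Promoter reads at 21 and 22 nt and pseudogene reads at 21 nt each reached the lowest permutation p possible here, 0.005, with adjusted p = 0.0127. Transposable element reads at 22 nt had permutation p = 0.02 and adjusted p = 0.0431. A lower level in a bulk sample can come from fewer cells of a type or from less small RNA per cell, and these cannot be told apart. On single media the class values were compared with limma, a linear model with moderated variances fitted over all 28 values, since 3 against 3 libraries cannot give an exact permutation p below 0.1. On MS, 5 of the 8 passed (1 higher, 4 lower), against 64.3% of the 28 (5 higher, 13 lower). Per total of the 13 classes 0 higher and 5 lower of the 8 passed on MS, and without microRNA 1 higher and 0 lower. On MS-N, 6 passed (1 higher, 5 lower), against 85.7% (15 higher, 9 lower). Among the 28 on MS-N, the genotypes overlapped only for 22-nt pseudogene and 22-nt snRNA reads. On MS they overlapped for 22-nt intergenic, pseudogene and 3′ untranslated region reads. At both lengths on MS they overlapped for transposable element, rRNA, snRNA and snoRNA reads. Lack of overlap between the genotypes is thus not particular to the 4 classes.

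Promoter reads, which come from sequence upstream of genes, were lower in dcl4-2 at both lengths. At 21 nt they were 4688, 4986 and 4790.0 rpm in Col-0 on MS and 3666, 3707 and 3530.4 in dcl4-2. On MS-N they were 7468, 7337 and 6899 in Col-0 and 5133, 5423 and 5472 in dcl4-2. The genotypes did not overlap on either medium. The limma difference was log2 -0.41 ± 0.058 (SE, adjusted p = 0.000154) on MS and -0.44 ± 0.058 (adjusted p = 4.6e-05) on MS-N. At 22 nt on MS, promoter reads were 8785, 9616 and 8074 rpm for Col-0 against 6879, 6236 and 5667 for dcl4-2. On MS-N they were 13809, 13513 and 12187 in Col-0 and 8504, 8599 and 8888 in dcl4-2. Again no libraries overlapped, and the difference was log2 -0.50 ± 0.088 (adjusted p = 0.000681) on MS and -0.60 ± 0.088 (adjusted p = 9.2e-05) on MS-N. These promoter calls held without any single library. When levels were taken per total of reads without microRNA, the MS differences were log2 -0.18 at 21 nt (adjusted p = 0.186) and -0.27 at 22 nt (adjusted p = 0.0917) and no longer passed. MicroRNA, which DCL1 makes, was the largest class and higher in dcl4-2, at 111687 ± 7732 rpm against 85653 ± 8204 in Col-0 on MS at 21 nt (SD, n = 3). Its part in the lower promoter share was not tested.

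Pseudogene reads were lower in dcl4-2 at 21 nt, and at 22 nt their difference missed the threshold. At 21 nt Col-0 on MS had 541, 569 and 563 rpm and dcl4-2 468, 409 and 437. On MS-N Col-0 had 502, 543 and 482 rpm and dcl4-2 371, 355 and 387. The genotypes did not overlap, and the limma difference was log2 -0.35 ± 0.070 (SE, adjusted p = 0.0016) on MS and -0.45 ± 0.070 (adjusted p = 0.000104) on MS-N. Without replicate 1 of dcl4-2 the MS difference was log2 -0.40 (limma adjusted p = 0.000406). Per total without microRNA it was log2 -0.13 and no longer passed (limma adjusted p = 0.565). The 22-nt pseudogene level on MS averaged 697 ± 32.9 rpm for Col-0 against 627 ± 37.0 for dcl4-2. On MS-N the averages were 567 ± 21 and 544 ± 26.5 rpm (SD, n = 3), and the genotypes overlapped on both media. Its difference missed the threshold over both media at log2 -0.11 (exact permutation p = 0.03, adjusted p = 0.056). Per total without microRNA it was log2 0.096, and per total of the 13 classes -0.20 (permutation adjusted p = 0.0117), so its sign depends on the scaling. The 21-nt call over both media also ended per total without microRNA, at log2 -0.20 (permutation adjusted p = 0.0636).

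Transposable element reads were lower in dcl4-2 on MS-N at both lengths. At 22 nt they were 30314, 29725 and 26198 rpm in Col-0 and 16964, 18116 and 17548 in dcl4-2, with no overlap (limma log2 -0.71 ± 0.14, SE, adjusted p = 0.000503). At 21 nt they were 15794, 15555 and 13615 rpm in Col-0 and 9154, 10254 and 10094 in dcl4-2, again with no overlap (limma log2 -0.61 ± 0.19, adjusted p = 0.0119). Per total without microRNA the 21-nt difference was log2 -0.42 and missed the threshold (limma adjusted p = 0.0752). On MS the genotypes overlapped at both lengths. At 21 nt on MS, Col-0 had 13638, 17127 and 13418 rpm. At 22 nt Col-0 had 17559, 21200.1 and 16174 rpm, and the 3 dcl4-2 libraries were those given above. The MS differences were log2 -0.25 ± 0.19 at 21 nt (adjusted p = 0.269) and -0.17 ± 0.14 at 22 nt (adjusted p = 0.283), which passed in neither case. They hinged on replicate 1 of dcl4-2. Without it they were log2 -0.52 (limma adjusted p = 0.000903) and -0.33 (adjusted p = 0.0112), and with replicate 1 as the only dcl4-2 library they were 0.30 and 0.16. Leaving out replicate 1 brought the class values that passed on MS from 5 to 8 of 8 (1 higher, 7 lower). Over both media it brought them from 4 to 7 of 8 (1 higher, 6 lower). The share of all class values that passed in these fits is not given here. The counts are therefore not read as particular to the classes described. The 22-nt call over both media was lost in 9 of the 12 fits that left out 1 library, with permutation adjusted p from 0.02 to 0.0862, and it ended per total without microRNA, at log2 -0.24 (adjusted p = 0.162).

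Intergenic 21-nt reads were lower in dcl4-2 on MS and higher on MS-N. On MS Col-0 had 30202, 27879.7 and 27915 rpm and dcl4-2 21036, 23755 and 21935. On MS-N Col-0 had 22247, 24062 and 24673 rpm and dcl4-2 34348, 30592 and 36347. The genotypes did not overlap on either medium, and their order was opposite. The limma difference was log2 -0.37 ± 0.080 (SE, adjusted p = 0.00236) on MS and 0.51 ± 0.080 (adjusted p = 0.000106) on MS-N. Without replicate 1 of dcl4-2 the MS difference was log2 -0.33 (limma adjusted p = 0.00399). Per total without microRNA it was log2 -0.14 and no longer passed (limma adjusted p = 0.457). The difference between these effects was itself tested, at log2 0.88 ± 0.11 (limma adjusted p = 5.7e-05). It passed without any single library, with adjusted p from 3.0e-05 to 0.000325. Of the 8 class values 2 passed in this interaction test (1 higher, 1 lower), against 53.6% of the 28 (13 higher, 2 lower). The second was 22-nt transposable elements at log2 -0.54 ± 0.19 (limma adjusted p = 0.0387), a call that was lost in 7 of the 12 fits without 1 library.

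Intergenic 22-nt reads gave the only rise that passed with genotype on MS, and it rested on replicates 2 and 3 of dcl4-2. Col-0 on MS had 30959.9, 31167 and 28709 rpm. Libraries of both genotypes overlapped (exact permutation p = 0.4, two-sided), while limma gave log2 0.62 ± 0.25 (SE) with adjusted p = 0.0497. The call ended in 11 of the 12 fits without 1 library (all but the one without replicate 1 of dcl4-2), and with replicate 1 as the only dcl4-2 library the difference was log2 -0.19. On MS-N Col-0 had 36764, 35029.8 and 38310 rpm and dcl4-2 43641, 43047 and 42964. These did not overlap, yet limma gave log2 0.24 ± 0.25 (adjusted p = 0.382), with 1 spread estimated from all 4 groups. Fitted with the MS-N libraries alone, the same difference had limma adjusted p = 0.00306, and without replicate 1 of dcl4-2 on MS it had adjusted p = 0.00639.

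**Figure D3:**
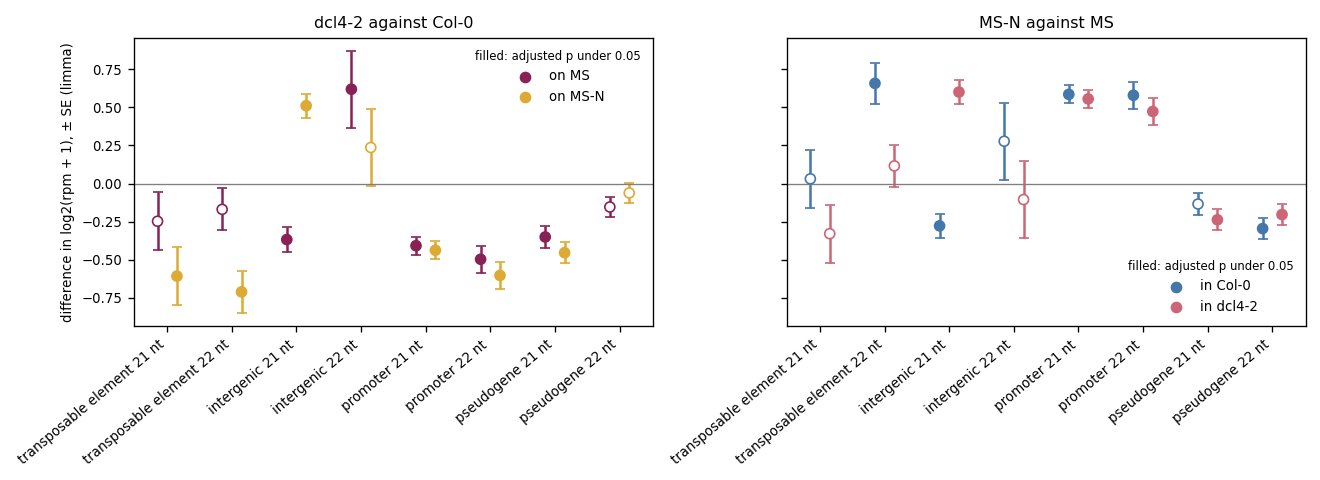
Differences in log2(rpm + 1) with their SE from limma for the 8 class values, dcl4-2 against Col-0 (left) and MS-N against MS (right). Filled points have an adjusted p under 0.05. Intergenic 21 nt lies below 0 on MS and above 0 on MS-N in the left panel, and promoter values lie below 0 on both media.

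Nitrogen deprivation went with lower pseudogene levels in rpm and within the classes, and with higher promoter levels in rpm, which did not pass per total of the 13 classes. Over both genotypes 5 of the 8 class values passed, 3 higher (promoter at both lengths, transposable elements at 22 nt) and 2 lower (pseudogene at both lengths), by the two-sided exact permutation test within genotypes. Of the 28 values, 75% passed (19 higher, 2 lower). Per total of the 13 classes, 0 higher and 4 lower of the 8 passed, and without microRNA 2 higher and 3 lower. The median over all 28 was a rise of log2 0.62, and with levels taken per total of the 13 classes every value moved by log2 -0.56. These 13 classes held 24.6 to 28.3% of the library on MS and 35.6 to 42.8% on MS-N, so a rise in rpm and a rise within the 13 classes are different measurements.

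Promoter reads rose on MS-N by log2 0.57 at 21 nt and 0.53 at 22 nt (both exact permutation p = 0.005, adjusted p = 0.00778), near that median. All 6 MS-N libraries were above all MS libraries of their genotype at both lengths. Per total of the 13 classes these changes were log2 0.014 (adjusted p = 0.79) and -0.030, so the rise did not hold within the classes. The 22-nt transposable element reads rose by log2 0.39 (exact permutation p = 0.025, adjusted p = 0.0333), with Col-0 means of 18311 ± 2596 rpm on MS and 28746 ± 2226 on MS-N, and dcl4-2 means of 16402 ± 3399 and 17543 ± 576 (SD, n = 3). Within Col-0 the groups did not overlap, and within dcl4-2 they did. Per total of the 13 classes the change over both genotypes was log2 -0.17, and the call was lost in 9 of the 12 fits without 1 library. Pseudogene reads fell by log2 0.19 at 21 nt (permutation adjusted p = 0.014) and by 0.25 at 22 nt (permutation adjusted p = 0.00778), and fell under the other scalings too. Transposable element reads at 21 nt did not pass in rpm (log2 -0.15), but fell by log2 0.70 per total of the 13 classes (permutation adjusted p = 0.0108) and by 0.47 without microRNA (permutation adjusted p = 0.00875). Intergenic reads at 22 nt were at log2 0.087 in rpm, which did not pass, and fell by log2 0.47 per total of the 13 classes (permutation adjusted p = 0.0389).

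In single genotypes, 5 of the 8 class values passed in Col-0 (3 higher, 2 lower) and 5 in dcl4-2 (3 higher, 2 lower) by limma, against 82.1% of the 28 in each. Over the 28, the calls were 18 higher and 5 lower in Col-0, and 21 higher and 2 lower in dcl4-2. In Col-0 the media overlapped only for 22-nt reads of 5′ untranslated regions and 21-nt pseudogene, rRNA and transposable element reads. In dcl4-2 they overlapped only for 22-nt intergenic, 21-nt rRNA and both transposable element values. Lack of overlap between media is thus not particular to the 4 classes. Per total of the 13 classes the rises among the 8 were gone, with 3 lower in Col-0 and 5 lower in dcl4-2. Without microRNA 2 were higher and 3 lower in each. In Col-0 the 22-nt transposable element reads rose (log2 0.66 ± 0.14, SE, adjusted p = 0.000877; 0.36 and adjusted p = 0.0522 per total without microRNA, 0.17 and adjusted p = 0.219 per total of the 13 classes) and the 21-nt intergenic reads fell (log2 -0.28 ± 0.080, adjusted p = 0.00631). In dcl4-2 the 21-nt intergenic reads rose (log2 0.60 ± 0.080, limma adjusted p = 1.7e-05), although per total of the 13 classes they stood at -0.029. The 22-nt transposable element difference in dcl4-2 was log2 0.12 ± 0.14 (limma adjusted p = 0.43), 0.28 (adjusted p = 0.0257) without replicate 1 on MS, and -0.51 per total of the 13 classes, which passed in the opposite direction (adjusted p = 0.00359). At 21 nt, transposable element reads in dcl4-2 were log2 -0.33 on MS-N (limma adjusted p = 0.126) and -0.96 per total of the 13 classes (adjusted p = 0.00103). The 22-nt intergenic difference in Col-0 was log2 0.28 ± 0.25 (limma adjusted p = 0.318), although its groups did not overlap. It passed without replicate 1 of dcl4-2 on MS (limma adjusted p = 0.00215). For dcl4-2 the value was log2 -0.10 ± 0.25 (limma adjusted p = 0.687), -0.51 (adjusted p = 3.6e-05) without that replicate, and -0.73 (adjusted p = 0.0208) per total of the 13 classes.

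The 22-nt share of the 21-nt and 22-nt reads of a class does not depend on library scaling. Of the 4 classes, only pseudogenes passed in the genotype test over both media and only transposable elements in the medium test. The share of transposable element reads was 55.4% ± 0.819 in Col-0 on MS and 65.7% ± 0.0792 on MS-N, and 56.7% ± 3.42 and 64.1% ± 0.764 in dcl4-2 (SD, n = 3). All MS-N libraries lay above all MS libraries of their genotype. The ratio of 22-nt to 21-nt reads rose by log2 0.54 on MS-N (exact permutation p = 0.005, adjusted p = 0.035 over 14 classes). Of the 14 classes 14.3% passed in this test. Without replicate 1 of dcl4-2 on MS-N the adjusted p was 0.07, and it passed in the other 11 fits without 1 library. By limma within single genotypes the log2 rise was 0.63 in Col-0 (adjusted p = 9.7e-05, where 42.9% of the 14 classes passed) and 0.44 in dcl4-2 (adjusted p = 0.00234, where 21.4% passed). Without replicate 1 of dcl4-2 on MS the dcl4-2 value was 0.34 (limma adjusted p = 0.000577). The genotype difference of this ratio on MS was log2 0.078 (limma adjusted p = 0.516) with all libraries. Without that replicate it was 0.19 and passed (limma adjusted p = 0.0144). Within dcl4-2 on MS, replicate 1 had a share of 53.0% and replicates 2 and 3 had 59.7% and 57.5%. The exact 95% intervals (Clopper-Pearson) of these shares were within 0.383 points, and cover counting error only, since the reads carry no molecular identifiers that the files show.

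The pseudogene share was 56.5, 56.1 and 54.0% in Col-0 on MS and 58.7, 60.2 and 57.6% in dcl4-2. On MS-N it was 53.4, 51.8 and 53.0% in Col-0 and 58.5, 60.1 and 59.7% in dcl4-2. The genotypes did not overlap on either medium, and the ratio was log2 0.29 higher in dcl4-2 (exact permutation p = 0.005, adjusted p = 0.0175), where 28.6% of the 14 classes passed. By limma the MS difference was log2 0.20 (adjusted p = 0.0144) and the MS-N difference 0.39 (adjusted p = 0.00012), where 35.7% passed on each medium. The MS call was lost in 2 of the 12 fits without 1 library, those without replicate 3 of Col-0 or replicate 2 of dcl4-2 on MS, with adjusted p up to 0.0626. Within Col-0 the pseudogene ratio changed by log2 -0.16 on MS-N (limma adjusted p = 0.0357), a call lost in 5 of the 12 fits without 1 library (replicate 1 or 2 of Col-0 on MS, replicate 2 or 3 of Col-0 on MS-N, or replicate 3 of dcl4-2 on MS-N), with adjusted p up to 0.143. The intervals of single libraries reached 1.53 points here. The promoter share averaged 64.6% ± 1.63 (MS) and 64.5% ± 0.579 (MS-N) in Col-0, and 63.2% ± 1.85 (MS) and 61.9% ± 0.519 (MS-N) in dcl4-2. Its genotype difference over both media missed the threshold (exact permutation p = 0.03, adjusted p = 0.084), and passed in 2 of the 12 fits without 1 library. On MS the promoter ratio differed by log2 -0.089 (limma adjusted p = 0.323). Without replicate 1 of dcl4-2 on MS it differed by -0.15 and passed (limma adjusted p = 0.0406).

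The intergenic share was 50.6, 52.8 and 50.7% in Col-0 on MS and 62.3, 59.3 and 60.8% on MS-N. For dcl4-2 the shares were 55.7, 73.6 and 72.3% on MS, against 56.0, 58.5 and 54.2% on MS-N. The media did not overlap in Col-0 and overlapped in dcl4-2. With all libraries the limma change missed the threshold in both, at log2 0.55 (adjusted p = 0.0934) in Col-0 and -0.70 (adjusted p = 0.0574) in dcl4-2. Both passed without replicate 1 of dcl4-2 on MS, which enters the spread shared by all groups. The Col-0 change then had limma adjusted p = 6.3e-05, and the dcl4-2 change was -1.07 (limma adjusted p = 1.8e-06). With replicate 1 as the only dcl4-2 library on MS, the dcl4-2 change was 0.028. By limma the ratio was log2 0.99 ± 0.24 (SE) higher in dcl4-2 on MS, without overlap (adjusted p = 0.00852), 1.35 higher without replicate 1 (adjusted p = 6.5e-08), and differed by log2 -0.27 on MS-N (adjusted p = 0.421). The change of the ratio with medium differed between genotypes by log2 -1.26 ± 0.35 (limma, SE, adjusted p = 0.0128), where 35.7% of the 14 classes passed. It passed without any single library, with adjusted p up to 0.0344.

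**Figure D4:**
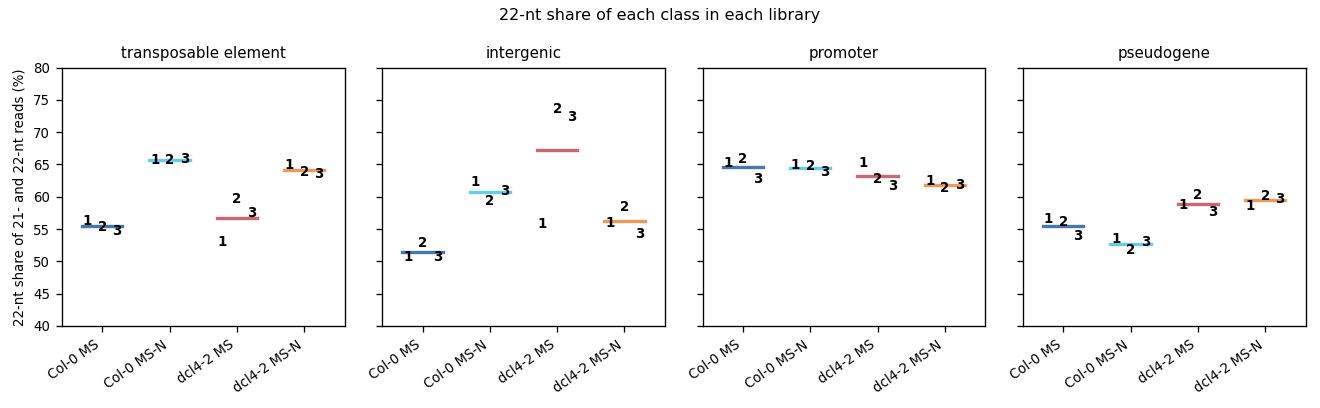
The 22-nt share of the 21-nt and 22-nt reads of each class, in percent, by group. Lines are means of 3 libraries and digits mark replicates 1, 2 and 3, and the axis does not start at 0. Replicates 2 and 3 of dcl4-2 on MS stand above all other intergenic libraries, and transposable elements are higher on MS-N in both genotypes.

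Single loci behind the classes could be followed for pseudogenes alone, in the authors' gene tables. Of the 32420 gene loci listed there, 4829 are typed as pseudogene by RefSeq. They are not the pseudogene class itself. At 22 nt their summed reads were 56065 to 59857 normalized reads in the Col-0 libraries on MS, where the class held 4138 to 4500 reads, and the class that holds the rest is not given in the sources used here. Normalized reads are whole reads divided by a library size factor, and the authors deposited their mean per group. The libraries behind each mean were recovered by arithmetic and carry no replicate number.

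By the authors' deposited table, pseudogene loci at 22 nt were lower more often than higher in dcl4-2 on MS-N. Against Col-0 on MS-N, 213 of 3329 were lower and 29 higher at the authors' adjusted p under 0.05, which is 6.40% and 0.871%. Of all loci in that deposited comparison 4.48% were lower and 9.29% higher. The median deposited log2 ratio was -0.40 for pseudogene loci and 0.30 for all loci. With nitrogen deprivation in dcl4-2, 466 of 3650 were lower and 32 higher in the authors' deposited table (12.8% and 0.877%), against 6.8% and 8.38% of all loci, with medians of -0.41 and 0.34. In Col-0 the authors' deposited table has 194 of 3572 lower and 106 higher at 22 nt (5.43% and 2.97%), against 8.23% and 3.35% of all loci, with medians of 0.22 and 0.050. At 21 nt the authors' deposited table has 69 of 1846 lower and 8 higher by genotype on MS-N (3.74% and 0.433%), against 4.87% and 7.3% of all loci. By medium in dcl4-2 it has 124 lower and 16 higher of 2996 (4.14% and 0.534%), against 4.19% and 5.28%. In Col-0 it has 49 lower and 26 higher of 2836 (1.73% and 0.917%), against 6.09% and 2.8%. The share of pseudogene loci that were lower was thus not above that of all loci at 21 nt. The authors' table used here has no comparison of the genotypes on MS.

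Single pseudogene loci, taken for their abundance or for the size of their change, differed in direction. AT3G43828 (chr3:15677383-15678009, minus strand, TAIR10.1) rose on MS-N. For Col-0 its recovered 22-nt libraries held 90.4, 56.0 and 32.4 normalized reads on MS against 727, 628 and 628 on MS-N. For dcl4-2 they held 19.5, 83.3 and 216 on MS against 1108, 1062 and 887 on MS-N. The groups did not overlap in either genotype, and the authors' deposited log2 ratios were 3.47 (adjusted p = 1.4e-05) and 3.26 (adjusted p = 5.7e-05). AT2G07688 (chr2:3331754-3332146, minus strand) fell on MS-N. Its 22-nt means in the authors' deposited table were 1245 normalized reads on MS against 136 on MS-N for Col-0, with 1169 against 271 for dcl4-2. AT1G62860 (chr1:23274487-23277075, minus strand) is annotated as a pseudogene of a pentatricopeptide repeat protein, a family whose genes give secondary siRNAs. Its 21-nt reads were 876, 807 and 812 in Col-0 on MS-N and 127, 128 and 138 in dcl4-2, without overlap (authors' deposited log2 ratio -2.67, adjusted p = 7.5e-52). Its 22-nt reads were higher in dcl4-2, at 138, 163 and 162 against 89.8, 79.5 and 70.9 (authors' deposited log2 ratio 0.95, adjusted p = 0.000634). AT5G35070 (chr5:13336981-13338990, minus strand) was higher in dcl4-2 on MS-N at 22 nt, at 249.9, 112 and 189.9 normalized reads in dcl4-2 and 9.67, 7.60 and 15.1 in Col-0 (authors' deposited log2 ratio 4.10, adjusted p = 7.4e-30). AT3G22955 (chr3:8138497-8138965, plus strand) had 0 recovered 21-nt reads in all 6 Col-0 libraries and 7.42 to 11.6 normalized reads in the dcl4-2 libraries.

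The rule for naming loci took 32 in all, and the values of 10 of them are given here, picked after those values were seen. At 22 nt AT3G22237 fell on MS-N, with means in the authors' deposited table of 132 normalized reads on MS against 9.80 on MS-N for Col-0, with 115 against 16.9 for dcl4-2. At 21 nt AT1G46120 fell likewise, with deposited means of 986 and 195 for Col-0, and 752 and 253 for dcl4-2. AT1G25209, annotated as a pseudogene of a deacetylase family, had a deposited 21-nt mean of 13.5 in Col-0 on MS-N and was listed at 0 in dcl4-2.

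The group of 18 loci introduced above had a library apart in dcl4-2 on MS alone. The rule, set after the values were seen, asked for at least 100 normalized reads in the highest library and at least 5 times the middle one. It found 18 loci at 22 nt, all high in the same library, and 14 at 21 nt, again all in 1 library. It found 0 in the other 3 groups at either length. Summed over the 18 loci, the 22-nt reads of dcl4-2 on MS were 1283, 2544 and 20671 normalized reads. The sums for Col-0 were 634, 685 and 639 on MS against 573, 595 and 674 on MS-N, and those for dcl4-2 on MS-N were 2225, 918 and 813. At 22 nt all dcl4-2 libraries were above all Col-0 libraries, and 1 was 8.13-fold above the next. The loci were chosen for a high dcl4-2 library on MS. This order follows in part from the choice, and nothing is read from it. AT5G29975 had 138, 318 and 2576 normalized reads in dcl4-2 on MS, and AT5G31719 had 131, 240 and 2636. At 21 nt the sum was 710, 403 and 4591 in dcl4-2 on MS and 249.5 to 295 in Col-0 on MS. On MS-N the 21-nt sums were 514, 312 and 253 in dcl4-2 and 277, 294 and 293 in Col-0, so the genotypes overlapped.

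**Figure D5:**
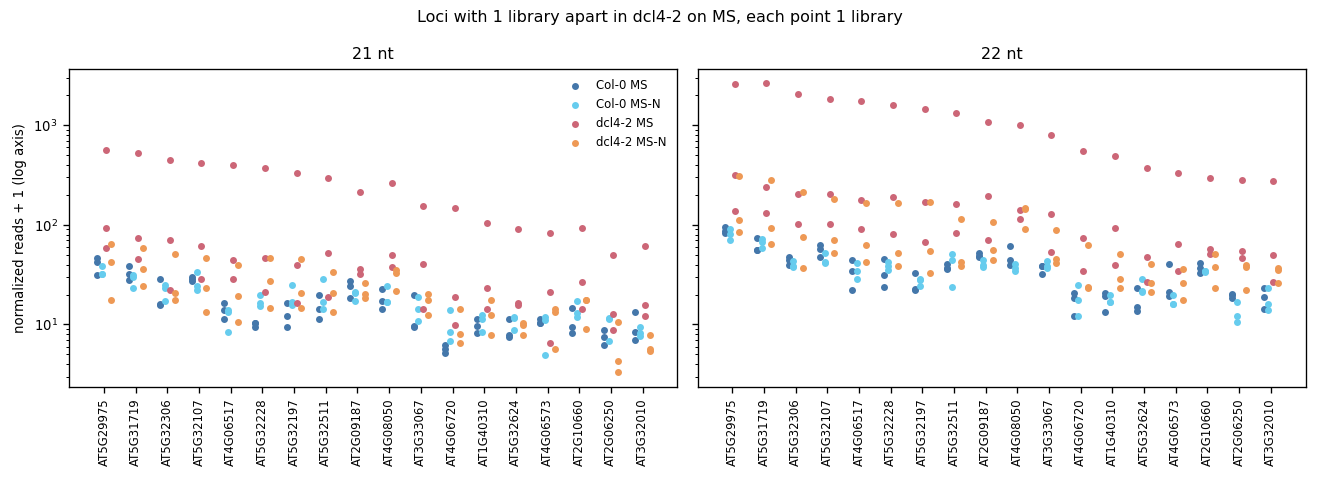
Normalized reads plus 1 (log axis) of the 18 pseudogene loci at 21 nt (left) and 22 nt (right), each point 1 recovered library, coloured by group. A single dcl4-2 library on MS lies above all others at every locus.

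The loci lay on all 5 chromosomes, 8 of them on chromosome 5, and were 1264 to 6471 bp long with a median of 1942.5 bp. The shared 22-base run was in 19 further pseudogene loci that the rule did not take. In each of these 19 the highest dcl4-2 library on MS had at least 2 times the 22-nt reads of the middle one, with a median of 3.57 times. Of the 1165 pseudogene loci without the run and with at least 20 normalized reads in their highest library, 105 did so, and the median was 1.24 times. The run was taken from the 18 loci and a read can fit several copies, so the 19 are not independent of the 18. Whether the highest library of the 19 was the same one was not tested. Without the 18 loci, the pseudogene sum at 22 nt was 61139, 63114 and 74622 normalized reads in dcl4-2 on MS and 45322 to 46928 on MS-N. The authors' deposited table called 16 of the 18 lower at 22 nt on MS-N in dcl4-2, with a median log2 ratio of -2.64, against 12.8% of pseudogene loci and 6.8% of all loci lower. That comparison holds the library for which the 18 were chosen, so their fall follows in part from the choice and nothing is read from it. Of the 19 further loci with the run, the authors' deposited table called 16 lower, with a median of -1.72, in the same comparison. They share the run and the same dcl4-2 libraries on MS, so nothing is read from their fall either. The recovered library could not be matched to a replicate number. Whether it is replicate 1, whose transposable element reads were high, was therefore not tested.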

How the data were processed

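Small RNA libraries of 12 seedling samples were compared as deposited, and the raw reads were not analysed here. Per the submitters' processing notes, Bowtie 1.2.2 and SAMtools 1.9 were used on TAIR10, while the counting rule, the class annotation and the test behind the deposited comparisons are not given in the sources used here. The class table deposited by the authors holds rpm, although its header says TPM. All its values are whole multiples of 1 step per library (tolerance 0.001 reads), which gave whole reads and library totals. The gene tables deposited by the authors hold a signal per locus and group, called normalized reads here, with the authors' log2 ratios, p-values and adjusted p-values. Single libraries of pseudogene loci were recovered by splitting each group mean into 3 whole numbers times fixed steps, with 100% of the loci above 0 split and 0 ambiguous. The splitting was also tested on simulated means.

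Class values were compared as log2(rpm + 1) with limma 3.58.1 in R 4.3.3 in 1 fit over 28 values and 4 groups, and with two-sided exact permutation tests within the other factor (400 arrangements), with Benjamini-Hochberg adjustment over the 28 values and a threshold of 0.05. Shares of 22-nt reads were tested as log2 ratios over 14 classes. A fold change on the log2(rpm + 1) scale is slightly understated for low values. The named loci were the 5 pseudogene loci with the highest mean at each length and up to 5 with the strongest authors' log2 ratio in each deposited comparison of genotype or medium, which took 32 loci, 10 of them printed. The members and lists were chosen with earlier results of these data known. Pseudogene types, coordinates and sequences are those of RefSeq for TAIR10.1, to which 31722 of 32420 locus identifiers matched. Python 3.11.15 with pysam 0.24.0 read the sequences. Same-numbered libraries of different groups deviated together in some pairs and apart in others, with correlations from -0.518 to 0.777 over 18 pairs, of which 7 were over 0.1, so the numbers were not treated as pairs. Alternatives were another scaling, pseudocount, filter, transformation, test and fit, and each library left out.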

Additional observations from a re-analysis of the deposited data

Results flagged for a closer look

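The effect of genotype differed between the media in 3 results, each by a limma test of the difference itself. For 21-nt intergenic reads the dcl4-2 effect was log2 0.88 higher on MS-N than on MS, and every dcl4-2 library was below every Col-0 library on MS and above every one on MS-N. For 22-nt transposable element reads the effect was log2 -0.54 (limma adjusted p = 0.0387), that is, more negative on MS-N. That call was lost in 7 of the 12 fits without 1 library. These left out replicate 1 or 3 of Col-0 on MS, replicate 1 or 2 of Col-0 on MS-N, or any replicate of dcl4-2 on MS-N. For the ratio of 22-nt to 21-nt intergenic reads the difference was log2 -1.26, with the dcl4-2 replicates on MS split between 55.7% of 22-nt reads in replicate 1 and 73.6% and 72.3% in replicates 2 and 3. The last 2 results also draw on the dcl4-2 libraries on MS that disagree with each other. Leaving out 1 of those libraries did not end the transposable element call. The part of that disagreement in the last 2 results was not tested beyond leaving out libraries.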

How the results depend on the processing

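Of the single values, 921 kept direction and side of the threshold when 1 library was left out, 46 lost the call, 27 gained it and 14 changed sign. Under the other settings 520 kept both, 56 lost the call, 30 gained it and 32 changed sign. Per total without microRNA, 1 class value passed for genotype on MS in place of 5. There the log2 differences of genotype were 0.071 (pseudogene 22 nt) and 0.055 (transposable element 22 nt) on MS, 0.12 (pseudogene 22 nt) on MS-N, and 0.096 (pseudogene 22 nt) over both media. The medium differences were -0.023 (intergenic 22 nt) and -0.27 (transposable element 21 nt) in Col-0, -0.23 (transposable element 22 nt) in dcl4-2, and -0.16 and -0.23 (intergenic 21 and 22 nt) over both genotypes. Per total of the 13 classes, 3 class values passed for medium in Col-0 in place of 5. There the medium differences were -0.20 (intergenic 22 nt) and -0.45 (transposable element 21 nt) in Col-0. In dcl4-2 they were -0.029 (intergenic 21 nt), -0.074 and -0.16 (promoter 21 and 22 nt) and -0.51 (transposable element 22 nt). Over both genotypes they were -0.39 and -0.47 (intergenic 21 and 22 nt), -0.030 (promoter 22 nt) and -0.17 (transposable element 22 nt). The interaction of 22-nt pseudogene reads was -0.055, and the genotype difference of 21-nt intergenic reads over both media was -0.026. In untransformed rpm, the medium difference of 22-nt intergenic reads over both genotypes was -164.02 rpm, and 4 interactions passed in place of 2. With classes under a mean of 1000 rpm left out, which drops the pseudogene class, 3 class values passed for medium in dcl4-2 and 3 over both genotypes. With the exact permutation test of 3 against 3 libraries, which cannot go below 0.1, 0 of the 8 passed in each of the 4 single contrasts, whereas limma called 5 or 6, and 0 of the 4 shares passed, whereas limma called 1 or 2. With replicate number as a block, the sign-flip test, whose smallest p is 0.0312, called 0 of 8 class values for genotype over both media, 4 for medium over both genotypes, and 0 of 4 shares for either factor. The limma counts with the block were 5 on MS, 6 on MS-N, 5 in each genotype, 2 interactions and 1 share interaction, as without it, and the shares called were 2 on MS, 2 on MS-N (1 without the block), 2 in Col-0 and 1 in dcl4-2. Leaving out replicates 2 and 3 of dcl4-2 on MS, chosen after seeing the data and with the lone library assumed to vary like the others, gave 3 class values for genotype on MS and 4 interactions, with 0 shares for genotype on MS and 3 on MS-N. It gave log2 -0.19 (intergenic 22 nt), 0.30 and 0.16 (transposable element 21 and 22 nt) for genotype on MS, 0.71 (intergenic 22 nt) and -0.21 (transposable element 22 nt) for medium in dcl4-2, and 0.43 (intergenic 22 nt) and 0.037 (transposable element 22-nt share) for the interaction. For the share ratios it gave -0.14 (transposable elements) and 0.039 (promoters) for genotype on MS and 0.028 (intergenic) for medium in dcl4-2. Tested as percent of 22-nt reads, 2 shares passed for medium in dcl4-2 in place of 1. With 1 library left out, the class values that passed numbered 4 to 8 for genotype on MS, 6 to 7 on MS-N, 3 to 7 over both media, 5 to 6 for medium in Col-0, 4 to 6 in dcl4-2, 4 to 5 over both genotypes and 1 to 3 for the interaction. The shares that passed numbered 1 to 2 for genotype over both media, 0 to 1 for medium over both genotypes, 1 to 2 for the interaction, 1 to 4 for genotype on MS, 1 to 3 on MS-N, 1 to 3 for medium in Col-0 and 1 to 2 in dcl4-2. The sign changes then were in values that did not pass with all libraries. They ranged from log2 -0.031 to 0.14 for 21-nt transposable elements by medium in Col-0, from -0.51 to 0.15 for 22-nt intergenic reads by medium in dcl4-2 and from -0.12 to 0.21 over both genotypes. The transposable element share ratio by genotype ranged from -0.057 to 0.042 over both media and from -0.0099 to 0.19 on MS, the intergenic ratio by medium from -0.26 to 0.028, the promoter ratio by medium in Col-0 from -0.064 to 0.033, and the pseudogene ratio by medium in dcl4-2 from -0.0025 to 0.074. At an adjusted p under 0.01, the authors' deposited table has 8 pseudogene loci higher and 30 lower by medium in Col-0 at 21 nt, 26 lower by genotype on MS-N, and 8 higher and 56 lower by medium in dcl4-2. At 22 nt it has 35 higher by medium in Col-0, 64 lower by genotype on MS-N, and 19 higher and 271 lower by medium in dcl4-2. The cause of these changes was not tested, beyond what each setting removes. A count model on the recovered class reads, planned as an alternative, was not run. With 3 libraries a group, the spread of dcl4-2 on MS limits the intergenic and transposable element comparisons. Each class value rests on at least 1676 reads, and the part of read depth in the results was not tested.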
